A study of Canis lupus familiaris with 12 samples.

Results

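The TGF-beta and activin signalling genes examined here are 10 of the 15115 genes with a probe set of their own, measured by 23 of the 42924 tested probe sets on a dog expression array. A probe set was taken as a member when the platform annotation named a single gene and that gene was TGFB1, TGFB2, TGFB3, INHBA, TGFBR1, TGFBR2, TGFBR3, SMAD2, SMAD3 or SMAD7. All 10 genes were found. TGFB1, INHBA, TGFBR1 and SMAD7 had 1 probe set each, TGFB2 and SMAD2 had 2, TGFB3, TGFBR3 and SMAD3 had 3, and TGFBR2 had 6. Of the 23 probe sets, 11 carry the suffix _s_at, which marks probes that can match more than 1 transcript.

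The cells were of the MDCK II tet-off line, a long-used culture model derived from the tubule epithelium of a dog kidney, here with a tetracycline-regulated transactivator, and were grown under G418 in type I collagen until day 8. Flat sheets in 2D culture were hybridised to 6 arrays, and cysts in 3D culture to 6 arrays. Both cultures were released with collagenase, and RNA of 4 samples was pooled for each array. All arrays come from 1 line. The titles call the arrays of each culture biological replicates, but how the pools were drawn is not stated. The p-values therefore cover only the spread from pool to pool, which may be technical. A lower signal in these bulk extracts can come from fewer cells of a kind or from less RNA per cell, and these cannot be told apart.

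TGF-beta ligands are secreted as latent dimers, held in the matrix by binding proteins and released by integrins or proteases. The freed ligand binds the type II receptor TGFBR2, which activates the type I receptor TGFBR1, with TGFBR3 (betaglycan) presenting the ligand. Activin A, a dimer of the INHBA product, uses its own receptors, and both routes phosphorylate SMAD2 and SMAD3, which enter the nucleus with SMAD4, while SMAD7 is an induced inhibitor. In kidney epithelium the pathway is known for growth arrest, matrix production and loss of epithelial traits.

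The comparison was 3D against 2D, the control condition. Values are log2(intensity + 1), and a log2 fold change is the 3D mean minus the 2D mean on that scale. A gene was called raised or lowered at an adjusted p under 0.05 (limma, adjusted over all tested probe sets), with its brightest probe set standing for it. As a background level, the 95th percentile of 59 controls that match no dog gene (bacterial genes and synthetic tags) was taken on each array. This control level was 5.76 ± 0.087 for the 2D arrays and 5.66 ± 0.042 for the 3D arrays (SD, n = 6 per culture). The difference, 3D minus 2D, was -0.11 (exact permutation p = 0.0130). Small falls of probe sets near or under the control level cannot be told apart from this shift. Levels of different probe sets are not compared, since each probe set has its own sensitivity.

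Of the 10 genes, INHBA, TGFB2 and SMAD2 rose in 3D, TGFBR2, TGFBR3 and SMAD3 fell, and TGFB1, TGFB3, TGFBR1 and SMAD7 did not pass. INHBA alone changed at least 2-fold. Among all 15115 genes, 19.8% rose and 22.9% fell, 42.7% were called either way and 2.12% were called with a change of at least 2-fold, so the members' 3 raised and 3 lowered of 10 lay not far above the general rate. Their median absolute log2 fold change was 0.26, against 0.14 over all genes. The 6 and 6 values did not overlap for 4 of the 10, against 22.6% of all genes. Counted over the 23 probe sets, 5 rose, 6 fell and 12 did not pass, where 16.7% of all probe sets rose, 22.0% fell and 38.7% were called either way.

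**Figure D1:**
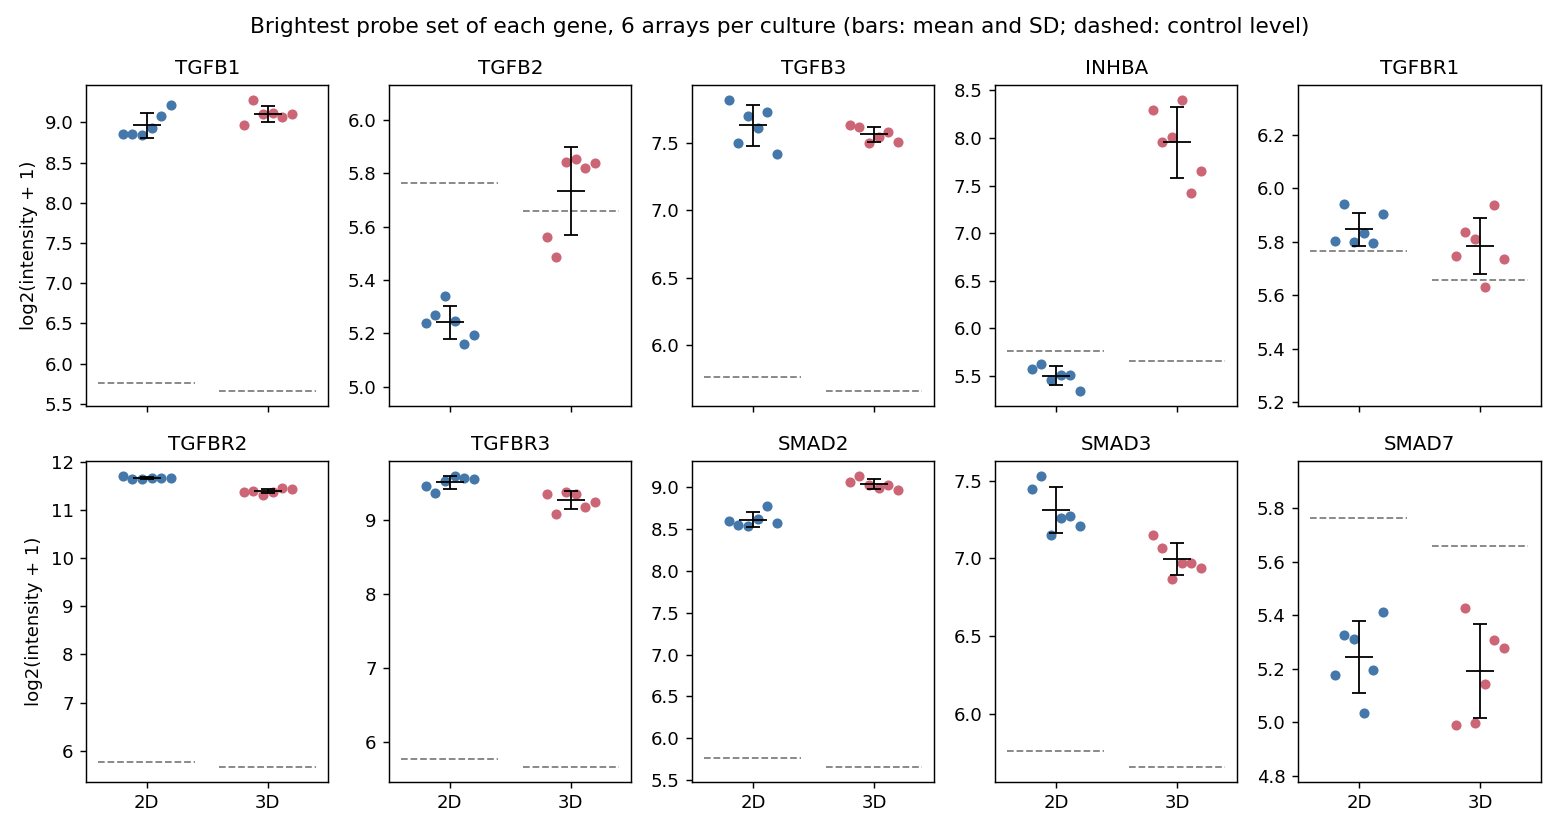
Each panel plots log2(intensity + 1) of the brightest probe set of 1 gene on 6 arrays of 2D and 6 of 3D culture; points are arrays, bars give the mean and SD, the dashed line is the mean control level of that culture, and the vertical axes differ between panels. INHBA lies under the control level on all 2D arrays and between 7.42 and 8.41 in 3D, while SMAD7 stays under it in both cultures.

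INHBA, the activin A subunit, was the ligand gene with the largest change. Its log2 values in 2D had a lowest of 5.34, a median of 5.51 and a highest of 5.63, and all 6 lay under the control level of their array. In 3D they were 8.29, 7.96, 8.01, 8.41, 7.42 and 7.65 for replicates 1 to 6, all above the control level. The cultures did not overlap, and the spread was wider in 3D (SD 0.37) than in 2D (SD 0.099). Since the 2D level is only a bound, the rise was at least 4.57-fold, and the fitted log2 fold change was 2.45 (SE 0.13, limma adjusted p = 5.95e-10). That size placed INHBA at the 99.8th percentile of absolute change among all genes.

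By likeness of pattern, the 3 genes with the highest Pearson correlation with INHBA over the 12 arrays were NOTUM, DTX3L and MMD. The correlations were 0.995, 0.992 and 0.992, and they are carried largely by the step between cultures, which these genes share with INHBA. Within the 6 arrays of 3D culture alone, r was 0.97 for NOTUM, 0.81 for DTX3L and 0.96 for MMD. Within 2D it was 0.16, 0.97 and 0.44, where INHBA itself was under the control level. NOTUM, a secreted enzyme that inactivates Wnt proteins, rose by 0.74, DTX3L, a ubiquitin ligase, by 0.60, and MMD by 1.87.

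TGFB1, the best known isoform, showed no called change. Its log2 values ran from 8.84 to 9.21 with a median of 8.89 in 2D, and from 8.96 to 9.28 with a median of 9.10 in 3D. The cultures overlapped because 2D replicates 5 and 6, at 9.08 and 9.21, lay within the 3D range. The log2 fold change was 0.14 (SE 0.070, 95% interval -0.0052 to 0.29, limma adjusted p = 0.115). The call depended on the arrays and settings used: TGFB1 passed without 2D replicate 6 (0.19, limma adjusted p = 0.0232), with the pair of 2D replicate 6 and 3D replicate 2 left out (0.16, adjusted p = 0.0339 by limma) and with array weights (0.15, limma adjusted p = 0.0435).

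TGFB2 had both its probe sets called raised, but at the bottom of the scale. The brighter one was under the control level on all 6 arrays of 2D, with values from 5.16 to 5.34 and a median of 5.24. In 3D it was above that level on 4 of 6 arrays, replicates 3 to 6, at 5.84, 5.85, 5.82 and 5.84, and under it on replicates 1 and 2, at 5.56 and 5.49. The cultures did not overlap, and limma gave a log2 fold change of 0.49 (SE 0.068, adjusted p = 3.05e-05). The second probe set was under the control level on all 12 arrays, with 0.22 (SE 0.048, limma adjusted p = 0.00204). No fold is given for TGFB2, because the 3D mean of 5.73 did not exceed the control level in 2D.

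TGFB3 had 3 probe sets, and none passed. The brightest ran from 7.42 to 7.82 in 2D and from 7.50 to 7.64 in 3D, with the 3D arrays lying inside the 2D range (log2 fold change -0.068, SE 0.064, 95% interval -0.20 to 0.068, limma adjusted p = 0.413). The other two were under the control level on every array. The within-array difference between TGFB1 and TGFB3 rose by 0.21 in 3D, which did not pass (exact permutation p = 0.106, adjusted p = 0.133 over the 5 such differences tested). For INHBA and TGFB1 the same kind of difference moved by 2.31, and the values of the cultures did not overlap (exact permutation p = 0.00216, the smallest this design can give, adjusted p = 0.00541). These differences were chosen after the values were seen, so their p-values add no support to the calls.

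**Figure D2:**
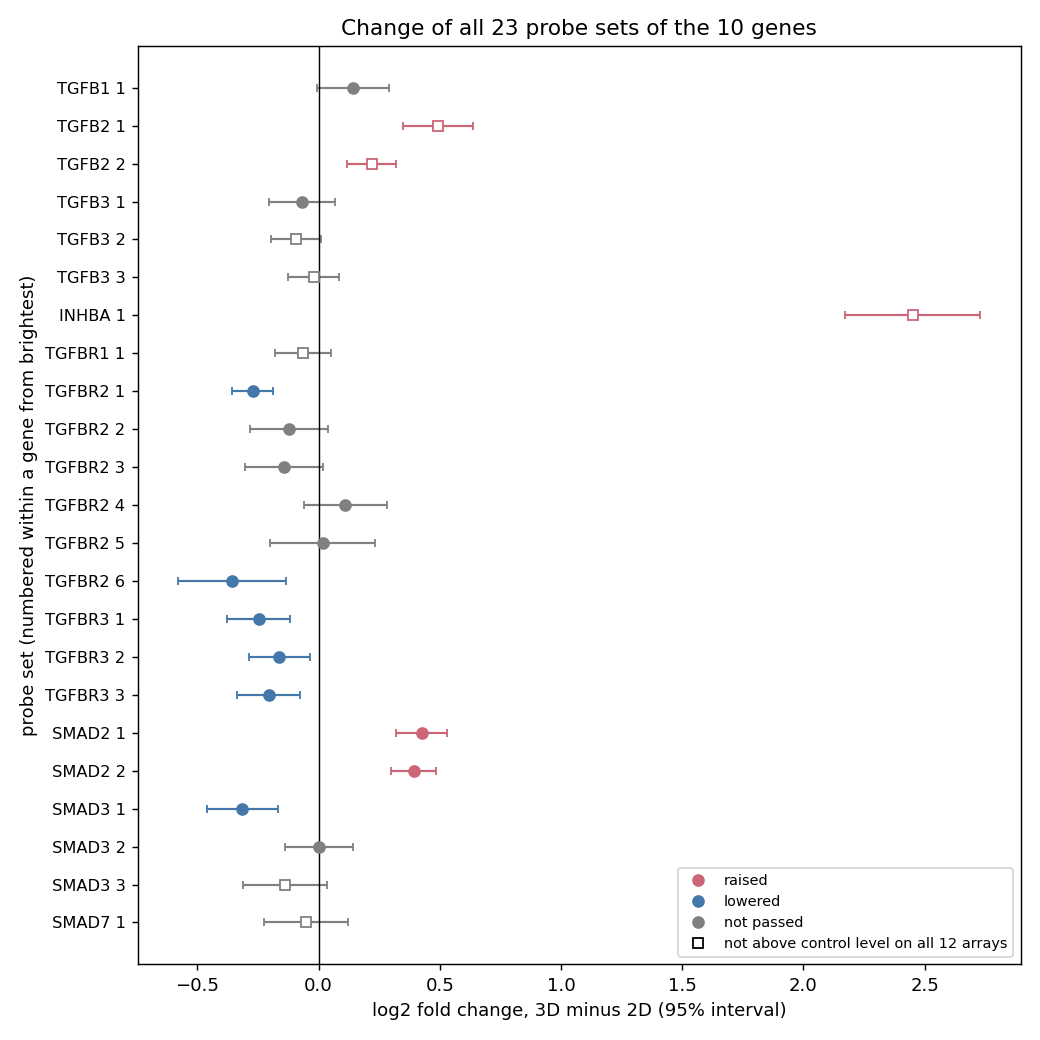
The log2 fold change, 3D minus 2D, of each of the 23 probe sets is plotted with its 95% interval, numbered within a gene from the brightest; red marks raised, blue lowered and grey not passed, and open squares were not above the control level on all 12 arrays. INHBA stands at 2.45, and all others lie between -0.36 and 0.49.

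TGFBR2, the ligand-binding type II receptor, fell by its brightest probe set. That probe set was tightly grouped, from 11.65 to 11.72 with a median of 11.66 in 2D and from 11.32 to 11.45 with a median of 11.40 in 3D. The 3D arrays all lay under the 2D arrays, and the fit gave -0.27 (SE 0.041, limma adjusted p = 6.47e-05), a fold of 0.828. The 5 other probe sets of TGFBR2, all above the control level on every array, were uneven. The dimmest fell by 0.36 (SE 0.10, limma adjusted p = 0.0143), and the other four did not pass, with log2 fold changes of -0.12, -0.14, 0.11 and 0.017. The dimmest shares its target identifier with the probe set at -0.12.

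The probe sets of TGFBR2 also differed in which arrays were high. The fourth by brightness had 3D replicates 1, 3 and 4 at 7.96, 8.00 and 8.03 and replicates 2, 5 and 6 at 7.60, 7.65 and 7.72, which lay within the 2D range of 7.60 to 7.87. The third had its lowest 3D values in replicates 5, 6 and 3, at 9.61, 9.72 and 9.75. The brightest probe set minus the mean of its 5 others averaged 3.41 ± 0.073 over the 2D arrays and 3.24 ± 0.18 over the 3D arrays (SD, n = 6 per culture), and this difference between probe sets did not pass (exact permutation p = 0.0584, adjusted p = 0.0974). With the mean of all 6 probe sets TGFBR2 was not called (log2 fold change -0.13, SE 0.056, limma adjusted p = 0.0770, adjusted over genes).

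**Figure D3:**
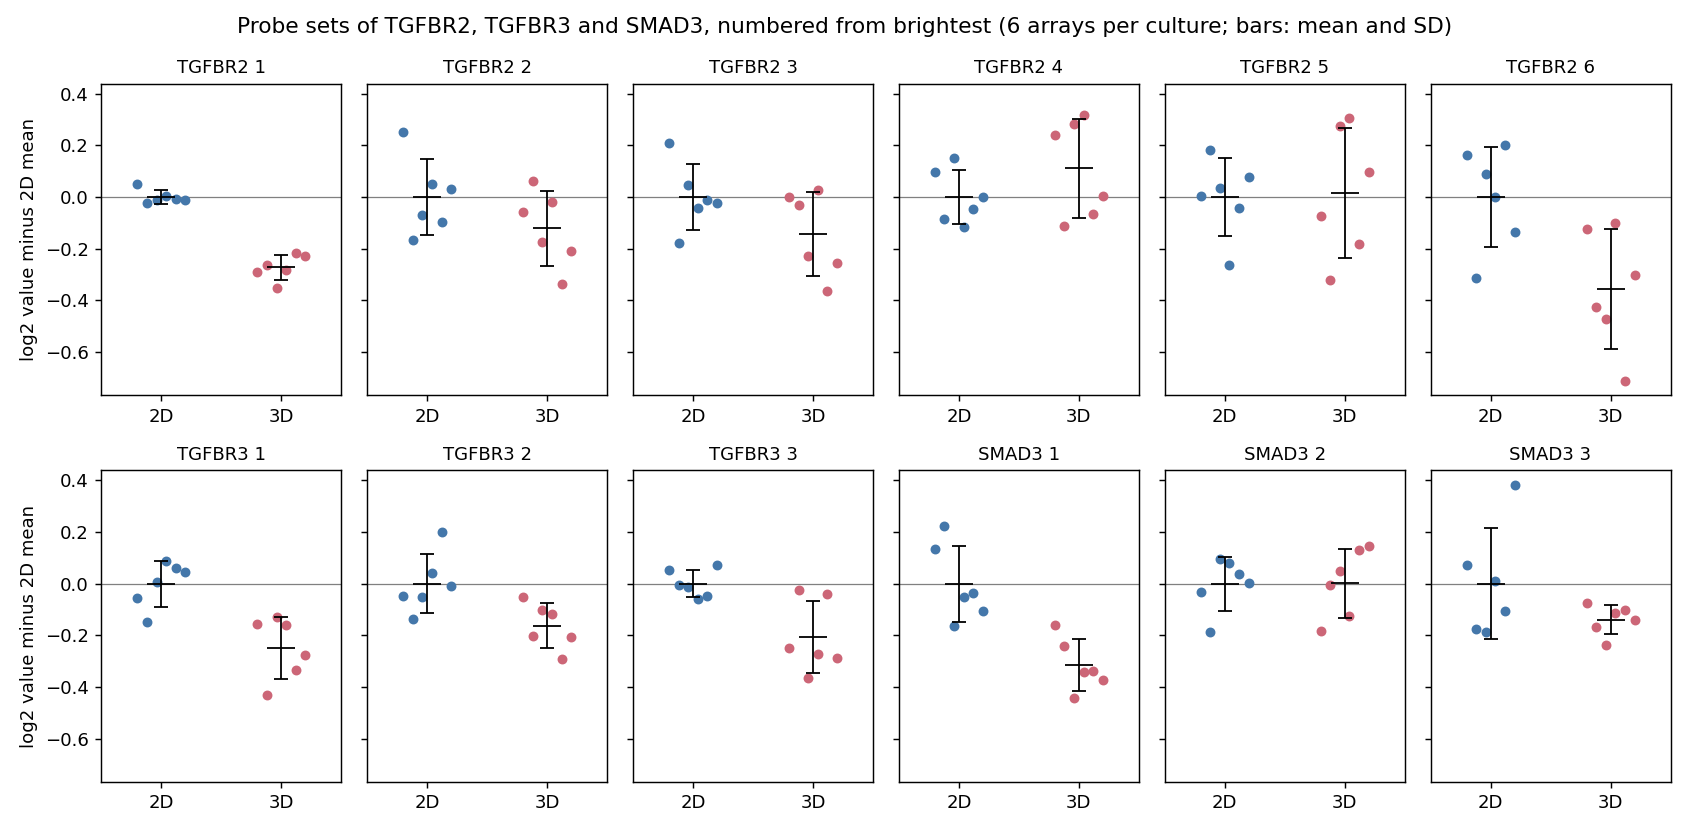
For the 6 probe sets of TGFBR2 and the 3 each of TGFBR3 and SMAD3, numbered from the brightest, the log2 value of each array minus the 2D mean is plotted for 2D and 3D; bars give the mean and SD. The brightest TGFBR2 probe set separates the cultures, the other probe sets of that gene overlap between cultures, and all 3 probe sets of TGFBR3 lie lower in 3D.

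TGFBR3, the co-receptor betaglycan, fell by all 3 of its probe sets. The brightest ran from 9.37 to 9.61 with a median of 9.55 in 2D and from 9.09 to 9.39 with a median of 9.30 in 3D, so the ranges touched at 2D replicate 2. Its log2 fold change was -0.25 (SE 0.061, limma adjusted p = 0.00466). The second changed by -0.16 (SE 0.059, limma adjusted p = 0.0409) and the third by -0.21 (SE 0.061, limma adjusted p = 0.0145). The call of the second was fragile: it was lost on leaving out 2D replicate 4, 5 or 6 or 3D replicate 2, 4, 5 or 6 (limma adjusted p from 0.0538 to 0.0931), with centring on the array median (0.0950) and with the replicate block (0.0672). The brightest and the dimmest carry the same target identifier and so are not independent readings of the gene. The within-array difference between TGFBR2 and TGFBR3 moved by -0.025 (exact permutation p = 0.732, adjusted p = 0.732).

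TGFBR1, the type I receptor kinase, was measured near background. Its single probe set ran from 5.79 to 5.94 in 2D and from 5.63 to 5.94 in 3D, above the control level on 5 of 6 arrays of each culture. The log2 fold change was -0.063 (SE 0.054, 95% interval -0.18 to 0.051, limma adjusted p = 0.364). At that signal a change of the receptor could be understated.

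By their brightest probe sets, the receptor-regulated SMADs moved in opposite directions. SMAD2 rose by both probe sets. The brighter had a lowest of 8.54, a median of 8.58 and a highest of 8.77 in 2D, and 8.97, 9.02 and 9.14 in 3D, so every 3D array lay above every 2D array. The log2 fold change was 0.42 (SE 0.050, limma adjusted p = 5.74e-06), a fold of 1.34. The second probe set gave 0.39 (SE 0.044, limma adjusted p = 2.98e-06), with 3D values held between 8.21 and 8.30.

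SMAD3 fell by its brightest probe set, from a median of 7.27 (7.15 to 7.53) in 2D to a median of 6.97 (6.87 to 7.15) in 3D. The highest 3D array, replicate 1, met the lowest 2D array, replicate 3, and the others were apart. The log2 fold change was -0.31 (SE 0.069, limma adjusted p = 0.00196). The second probe set did not pass, with 0.0021 (SE 0.066, limma adjusted p = 0.983), and the third was under the control level on all 12 arrays. The within-array difference SMAD2 minus SMAD3 averaged 1.30 ± 0.18 over the 2D arrays and 2.04 ± 0.079 over the 3D arrays (SD, n = 6 per culture). Its values did not overlap between cultures (exact permutation p = 0.00216, adjusted p = 0.00541). This pair was chosen after the rise and the fall had been seen, so the p-value adds no support to either.

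SMAD7, the inhibitory SMAD that TGF-beta signalling induces, was under the control level on all 12 arrays. Its single probe set ran from 5.04 to 5.41 in 2D and from 4.99 to 5.43 in 3D (log2 fold change -0.052, SE 0.081, limma adjusted p = 0.630). No level of SMAD7 can be given for either culture from it.

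A sign of RNA integrity moved with culture. The mean log2 ratio of 5-prime to 3-prime signal of 4 actin and GAPDH control pairs ran from -1.09 to -0.75 in 2D and from -0.88 to -0.40 in 3D (exact permutation p = 0.00866). Of the 3D arrays only replicate 2, at -0.88, lay within the 2D range. Ratio and culture are thus hard to tell apart, and calls kept, lost or gained with this covariate carry that limit throughout. With this ratio as a covariate, INHBA kept its call at 2.40 (limma adjusted p = 1.36e-06), SMAD2 0.56 (3.31e-05), TGFBR2 -0.26 (0.0115), TGFBR3 -0.31 (0.0397) and TGFB2 0.29 (0.0361), all for the brightest probe sets. SMAD3 no longer passed (-0.30, SE 0.11, limma adjusted p = 0.0798), and TGFB1 passed with a larger value (0.36, SE 0.092, limma adjusted p = 0.0120). The dimmest probe set of TGFBR2 also lost its call, at a like size but with a wider error (-0.37, SE 0.17, limma adjusted p = 0.174). The other two of TGFBR3 moved to -0.10 and -0.081 (limma adjusted p = 0.534 and 0.614) and the second of TGFB2 to 0.16 (limma adjusted p = 0.179), all no longer past the threshold.

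Markers of other cell types were also read. Fibroblast markers rose in 0 and fell in 2 of 10, endothelial markers rose in 0 and fell in 2 of 6, and leukocyte markers rose in 1 and fell in 3 of 7. The summed fibroblast intensity ran from 594 to 681 in 2D and from 563 to 637 in 3D. These counts lay at or under the rates over all genes, 19.8% raised and 22.9% lowered, except for the lowered leukocyte and endothelial markers. Summed leukocyte intensity ran from 527 to 573 in 2D and from 502 to 583 in 3D, and summed endothelial intensity from 440 to 487 and from 408 to 447. POSTN and COL1A2 were under the control level on all arrays, as were CD79A, LYZ and PECAM1. Others were above it on all 12 arrays, namely 4 fibroblast markers (COL3A1, COL6A3, PDGFRB and THY1), 4 leukocyte markers (PTPRC, CD3E, CD14 and ITGAM) and 3 endothelial markers (CDH5, KDR and VWF). CD14 was the raised leukocyte marker, by 0.43 (limma adjusted p = 3.85e-05). The part of such cells in the members' changes was not tested. All 8 measured kidney epithelial markers were above the control level on all 12 arrays, among them EPCAM, CDH16 and PAX8, as the label of the line says. Of these 8, 3 rose, CDH1 by 1.02, KRT8 by 0.64 and KRT18 by 0.18. Another 3 fell, OCLN (-0.24), CDH16 (-0.19) and PAX2 (-0.17). Their summed intensity ran from 27519 to 31273 in 2D and from 32563 to 34283 in 3D, with no overlap. That linear sum is carried mostly by the brightest markers, EPCAM, KRT18 and KRT8. The median log2 fold change of the 8 was -0.040.

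In the wider pathway, 29 of 85 measured further genes rose and 15 fell, where 19.8% of all genes rose and 22.9% fell. Their median log2 fold change was -0.0056, against -0.051 over all genes. The median absolute change was 0.17, smaller than the 0.26 of the members and close to the 0.14 over all genes. A called change of at least 2-fold was seen in 9 of the 85, against 2.12% of all genes. These rates over all genes are also the background for each list that follows. With 2D replicate 6 and 3D replicate 2 left out, 28 rose and 17 fell. With the RNA ratio as a covariate, 21 rose and 6 fell. The lists were drawn up with earlier results of these data known. Each gene was read by its brightest probe set, and its other probe sets did not always pass.

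**Figure D4:**
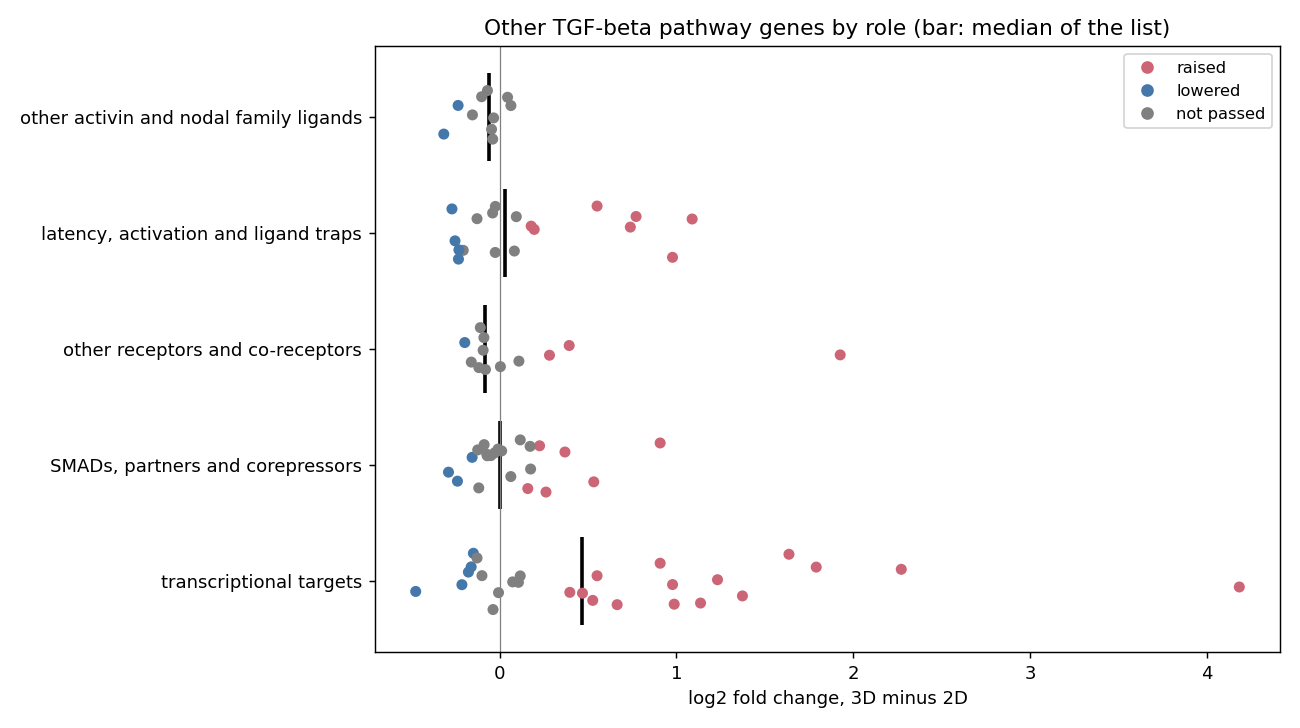
The log2 fold change, 3D minus 2D, of each measured pathway gene other than the members is plotted by role. Each list holds 1 point per gene, from its brightest probe set, and a bar at the median. PMEPA1, SKIL, ITGB6 and LTBP2 belong to more than 1 list and are plotted and counted in each. Red marks raised, blue lowered and grey not passed. The targets have a median of 0.47, and the medians of the other lists lie between -0.084 and 0.030.

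Few changes were called among other ligands of the activin and nodal group. Of 10 measured genes 0 rose and 2 fell. However, 4 of the 10 (INHBC, TDGF1, MSTN and GDF15) were not above the control level on any array, so changes of these could be missed. GDF11, a ligand close to myostatin, fell by 0.31 (SE 0.063, limma adjusted p = 0.000972) and GDF3 by 0.23, and both calls ended with the RNA covariate. GDF11 kept its size there (-0.30, SE 0.10, limma adjusted p = 0.0591), while GDF3 was at -0.11 (limma adjusted p = 0.615). The call of GDF3 was also lost on leaving out 2D replicate 1, 2, 4 or 6 or 3D replicate 1, 4 or 6 (0.0581 to 0.0823). The inhibin alpha subunit INHA (-0.10) and the activin B subunit INHBB (-0.038), both above the control level on every array, did not pass.

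Genes that store, free or trap the ligands went both ways, with 7 raised and 4 lowered of 18. LTBP1, which tethers latent TGF-beta to the matrix, rose from a range of 7.75 to 8.21 in 2D to 8.75 to 9.47 in 3D (limma log2 fold change 1.09, SE 0.11, adjusted p = 7.37e-07). The proteoglycan BGN rose by 0.98, with 1 of its 2 probe sets raised. FST, the secreted follistatin that binds and neutralises activin, rose by 0.77 (SE 0.13), from a range of 7.81 to 8.60 to 8.66 to 9.22. Of the integrin chains that free latent TGF-beta, ITGAV rose by 0.74 and ITGB6 by 0.55 by their brightest probe sets, while ITGB8 did not pass (0.095, SE 0.098, limma adjusted p = 0.455) and was called lowered with the RNA covariate (-0.30, limma adjusted p = 0.0411). The probe sets of the raised chains disagreed, with 2 raised and 2 lowered of 5 for ITGAV and 2 raised and 1 lowered of 5 for ITGB6, and the ITGB6 call ended with the RNA covariate (0.20, limma adjusted p = 0.0926). THBS1, an activator of latent TGF-beta, rose by 0.18 (limma adjusted p = 0.0411), a call lost on leaving out 2D replicate 2, 5 or 6 or 3D replicate 1, 2, 3 or 4 (0.0527 to 0.0902) and with the RNA covariate (0.11, limma adjusted p = 0.554).

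Among 12 other receptors and co-receptors, 3 rose and 1 fell. CD109, a membrane-anchored TGF-beta co-receptor that restrains the signal, rose most. Its values ran from 7.87 to 8.47 in 2D and from 9.92 to 10.14 in 3D (log2 fold change 1.93, SE 0.082, limma adjusted p = 4.28e-11). BAMBI, a decoy receptor, rose by 0.39, from a 2D level above control on 3 of 6 arrays, and ACVR1, a type I receptor best known for BMP signals, rose by 0.28. For ACVR1, 1 of 2 probe sets was raised. NRP1 fell by 0.20, under the control level on all arrays, and its call ended with the RNA covariate (-0.072, limma adjusted p = 0.532). The main activin receptors did not pass. Log2 fold changes were -0.092 for the type I receptor ACVR1B and, for the type II receptors, -0.088 for ACVR2A and 0.11 for ACVR2B. ACVR2A was above the control level on all arrays, at a mean of 9.56 in 2D. ACVR1B (2D mean 5.88) and ACVR2B (5.91) lay near that level, each above it on 5 of 6 2D arrays. Changes of ACVR1B and ACVR2B could therefore be understated.

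Of 22 SMADs, partners and corepressors, 6 rose and 3 fell. PMEPA1, a membrane protein that sequesters SMAD2 and SMAD3 and is itself a TGF-beta target, rose by all 3 of its probe sets. The brightest ran from 7.11 to 7.59 in 2D and from 8.09 to 8.38 in 3D (limma log2 fold change 0.91, SE 0.084, adjusted p = 3.69e-07). The corepressor TGIF1 rose by 0.53 and the ubiquitin ligase SMURF2 by 0.37. SMAD1, of the BMP branch, rose by 0.26 and the inhibitory SMAD6 fell by 0.29, and both calls ended with the RNA covariate (0.21 and -0.18, limma adjusted p = 0.160 and 0.297). By probe sets, 2 of 3 were raised for SMAD1 and 1 of 3 was lowered for SMAD6. The shared partner SMAD4 had a near-zero change of -0.0084 (SE 0.049, 95% interval -0.11 to 0.096, limma adjusted p = 0.905).

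Of 27 measured transcriptional targets, 15 rose and 5 fell, with a median log2 fold change of 0.47. With the RNA ratio as a covariate 11 rose and 1 fell. Those that rose most were TAGLN, a smooth muscle actin-binding protein, by 4.18, the metalloproteinase inhibitor TIMP3 by 2.27, the cell cycle inhibitor CDKN1A by 1.79, the repressor SNAI2 by 1.64 and the matrix protein TGFBI by 1.37. TGFBI was above the control level on 1 of 6 arrays in 2D, so the size of its rise and its rank are uncertain. FN1, the matrix protein fibronectin, was above that level on every array and rose by 1.23, a size close to that of TGFBI. The 5 lowered targets were EDN1, the vasoconstrictor peptide endothelin, at -0.47, COL1A1, which is also in the fibroblast list, at -0.21, TGM2 at -0.18, SNAI1 at -0.16 and NOX4 at -0.15. EDN1 alone of these was still called with the RNA covariate (-0.65, SE 0.19, limma adjusted p = 0.0246). By probe sets, 1 of 3 was lowered for COL1A1 and 1 of 6 for TGM2. COL1A1 was above the control level on 5 of 6 2D arrays and 1 of 6 3D arrays. The calls of SNAI1 and NOX4 were also lost without single arrays, SNAI1 without 2D replicate 2 or 5 or 3D replicate 4 and NOX4 without 3D replicate 1 or 4 (limma adjusted p from 0.0558 to 0.0605). CCN2, a matricellular protein, rose by 0.66 (SE 0.12, limma adjusted p = 0.000521), a call that ended with the RNA covariate (0.40, limma adjusted p = 0.165). SKIL, a corepressor and early target, lay under the control level on all 2D arrays and did not pass (0.12, limma adjusted p = 0.214), but passed without 3D replicate 2 (0.18, limma adjusted p = 0.0227). Most of these genes also answer to other pathways. PLAUR and HMGA2 had no probe set of their own in the annotation and are not analysed here.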

How the data were processed

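Biotin-labelled RNA was measured on 12 one-colour arrays. The deposited values are 1 linear intensity per probe set and array, made by the authors with GCRMA per the submitters' processing notes, its version, background model and any scaling after it being not given in the sources used here. They were used as log2(intensity + 1) without further normalization, so changes of dim genes are understated. After leaving out 111 control probe sets, 42924 were fitted in R 4.3.3 by limma 3.58.1 (lmFit, eBayes), with culture as the single term, a two-sided test and Benjamini-Hochberg adjustment. Of these, 29254 named 1 gene, 439 several and 13231 none. Gene identifiers of 27680 were found in RefSeq assembly UU_Cfam_GSD_1.0, which changed 0 symbols. No genome or sequence table was used, so no positions or sequences are given. For single values per array an exact permutation test, two-sided, enumerated all 924 assignments. Depth has no meaning for arrays, and 6 arrays per group limit the precision. The calculation was tested on simulated data.

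The members and gene lists were chosen with earlier results of these data known. Named genes were all members, up to 5 genes per list with the largest called change, or the brightest 2 where fewer than 2 passed, and ACVR1B, ACVR2A, ACVR2B, SMAD4, FST, BAMBI, LTBP1, THBS1, ITGAV, ITGB6, CCN2, TGFBI, SKIL and PMEPA1, with the 3 genes most like the most changed member. INHA, INHBB, ITGB8, FN1, CD14, the called kidney epithelial markers and the lowered targets were named after their values were seen. One further gene of the rule is not reported here. Alternatives were quantile normalization, median centring, a filter at log2 6 on at least 6 arrays, a trended robust prior, array weights, a pseudocount of 16, the replicate block, the removal of each array in turn, the RNA ratio as a covariate, the removal of both 2D replicate 6 and 3D replicate 2, the mean of a gene's probe sets, and a 2-fold minimum. The pair of 2D replicate 6 and 3D replicate 2 was removed as arrays judged to lie far out, by a criterion not given here. Same-numbered arrays of the cultures deviated together with correlations from 0.00084 to 0.36. As not all were above 0.1, the numbers were not taken to pair the arrays. For 2D replicates 1, 2, 3 and 4 the most alike 3D array was still the same-numbered one, which was not so for 5 and 6. The numbers may therefore mark a pairing, which the replicate block allows for. Figures were drawn with matplotlib 3.10.9.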

Additional observations from a re-analysis of the deposited data

Results flagged for a closer look

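Among the 46 groups of 6 arrays formed by the 23 probe sets in both cultures, 2 held an array far from the others by Dixon's test, where chance gives about 1 in 20. For the brightest probe set of TGFBR2, 2D replicate 1 stood at 11.72, with the nearest array at 11.67. For the brighter probe set of SMAD2, 2D replicate 5 stood at 8.77, with the nearest at 8.62. Both arrays lay outside the 3D range of that probe set, and both calls held without them.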

How the results depend on the processing

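Calls of the brightest probe sets of INHBA, SMAD2, TGFBR2 and TGFBR3 kept their direction and stayed past the threshold under all 21 alternatives fitted per probe set, and those of TGFB2 under the 20 in which it was tested, since the filter at log2 6 removed it. INHBA ranged from 2.13 to 2.56, SMAD2 from 0.32 to 0.56, TGFBR2 from -0.31 to -0.25 and TGFBR3 from -0.33 to -0.20. With the mean of a gene's probe sets TGFBR2 lost its call (-0.13, limma adjusted p = 0.0770), and with a 2-fold minimum INHBA was the only member still called. With the RNA ratio as a covariate, 4303 probe sets rose and 3624 fell, against 7171 and 9437, and 6 further pathway genes fell, against 15; the cause was not tested. Requiring a 2-fold change left 621 raised and 102 lowered probe sets. Raised calls were 43.2% of all calls, but 51.9% with median centring and 54.3% with the RNA covariate. Leaving out single arrays gave 6453 to 8033 raised and 7430 to 11016 lowered probe sets, 3 to 4 raised and 3 lowered members, and 26 to 30 raised and 12 to 17 lowered pathway genes. The replicate block gave 7402 raised and 9728 lowered probe sets and the same 3 and 3 counts of members, and ended the call of the second TGFBR3 probe set alone among member probe sets. The number of arrays and the control level limit TGFB2, TGFBR1 and SMAD7.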
